A study of Mus musculus with 16 samples.

Results

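Fatty acid oxidation in mitochondria and peroxisomes is described here through 36 genes, chosen by symbol for their place in the pathway, across quadriceps muscle and brown adipose tissue of mice that carry a mutation in Ppargc1a. All 36 were listed by these symbols in both tables of the series, which held 17539 genes in quadriceps and 18000 in brown fat, with 16882 in both. The mice were male C57BL/6 animals at 10 weeks of age, kept at room temperature. Mice homozygous for the allele labelled uORF-TAA (4 libraries per tissue) were set against wild-type littermates (4 libraries per tissue). The allele name puts a stop codon, TAA, beside an upstream open reading frame (uORF), a short frame ahead of the main coding sequence, and the labels give no further description of it.

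Long-chain fatty acids are activated to acyl-CoA by ACSL enzymes and cross the inner mitochondrial membrane as carnitine esters, with CPT1 as the step that malonyl-CoA inhibits. In the matrix, acyl-CoA dehydrogenases, hydratases, hydroxyacyl-CoA dehydrogenases and thiolases shorten the chain, and electron transfer flavoprotein (ETF) hands electrons to the respiratory chain. Peroxisomes shorten very long and branched chains by a parallel route. PGC-1alpha, the product of Ppargc1a, coactivates PPAR and ERR nuclear receptors on many of these genes, and brown fat burns fatty acids to make heat.

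Each table is the authors' comparison of the genotypes in one tissue, and values per library were not analysed here. A gene's level is its mean normalized count over the 8 libraries of a tissue, and its genotype effect is a log2 fold change with a standard error (SE) from DESeq2. Libraries held an estimated 11.4 to 31.8 M counts (M, mega) in quadriceps and 11.0 to 17.8 M in brown fat. Effects are stated as the ratio of uORF-TAA to wild type, which assumes that the genotype named first in each table is the numerator. If that fails for a tissue, every direction in that tissue turns over. The labelled tissues carried their defining transcripts: Myh4, the fast myosin heavy chain, took 10.2% of the summed mean counts of quadriceps and 0.333% of brown fat, and Ucp1, the uncoupling protein of brown adipocytes, took 0.371% in brown fat and 3.18e-05% in quadriceps. As both tissues were sampled in bulk, fewer cells of a type and less RNA per cell cannot be told apart.

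The oxidation genes were abundant, above all in brown fat. Together the 36 genes took 0.431% of the summed mean counts in quadriceps and 3.36% in brown fat, a ratio of 7.79. The tables were normalized separately and hold no spread for a level, so this comparison of tissues has no test. The share of 33 members was higher in brown fat, and the share of Acsl3, Acot2 and Acsl4 was lower. Among 9282 genes, all with means of 50 or more in each tissue, the median gene also had a higher share in brown fat. Of these genes, 74.6% had a higher share there. The median of the genes' ratios of shares, brown fat over quadriceps, was 1.88. In muscle the 10 most abundant genes took 28.1% of counts, and in brown fat 9.27%. Relative to that median gene the members' summed share was 4.15-fold higher in brown fat, with 30 members above it and 6 below it. Skeletal muscle fibre markers took 1.30% of counts in brown fat and 24.3% in quadriceps, and general adipocyte markers took 0.206% in quadriceps and 4.21% in brown fat. The part of such admixed cells in the members' levels was not tested.

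Levels can be compared between genes within a tissue per kilobase (kb) of transcript. In quadriceps the highest member was Acadl, the long-chain acyl-CoA dehydrogenase, with a mean normalized count per kb of 4678. Acsl1, the main long-chain acyl-CoA synthetase of muscle and fat, followed at 3075 per kb. The lowest was Acad10 at 11.9 per kb. In brown fat Acadl was again highest, at 26341 per kb. Acadvl, the very-long-chain acyl-CoA dehydrogenase, had 17889 per kb, Acadm, the medium-chain enzyme, 17392 and Acaa2, the mitochondrial thiolase, 17230. The lowest there were Cpt1a at 63.5 per kb and Acsl4 at 69.5. Acsl1, ETF subunits and core enzymes of the matrix spiral were the abundant members of both tissues, while Cpt1a, Cpt1b, Acsl3, Acsl4, Acsl5 and Pex11a lay far lower. The largest shifts in share toward brown fat were 29.1-fold for Acsl5, 27.4-fold for Acad10, 27.1-fold for Acaa2 and 24.0-fold for Ehhadh, the peroxisomal bifunctional enzyme. The plot of levels by tissue shows the members by role.

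**Figure D1:**
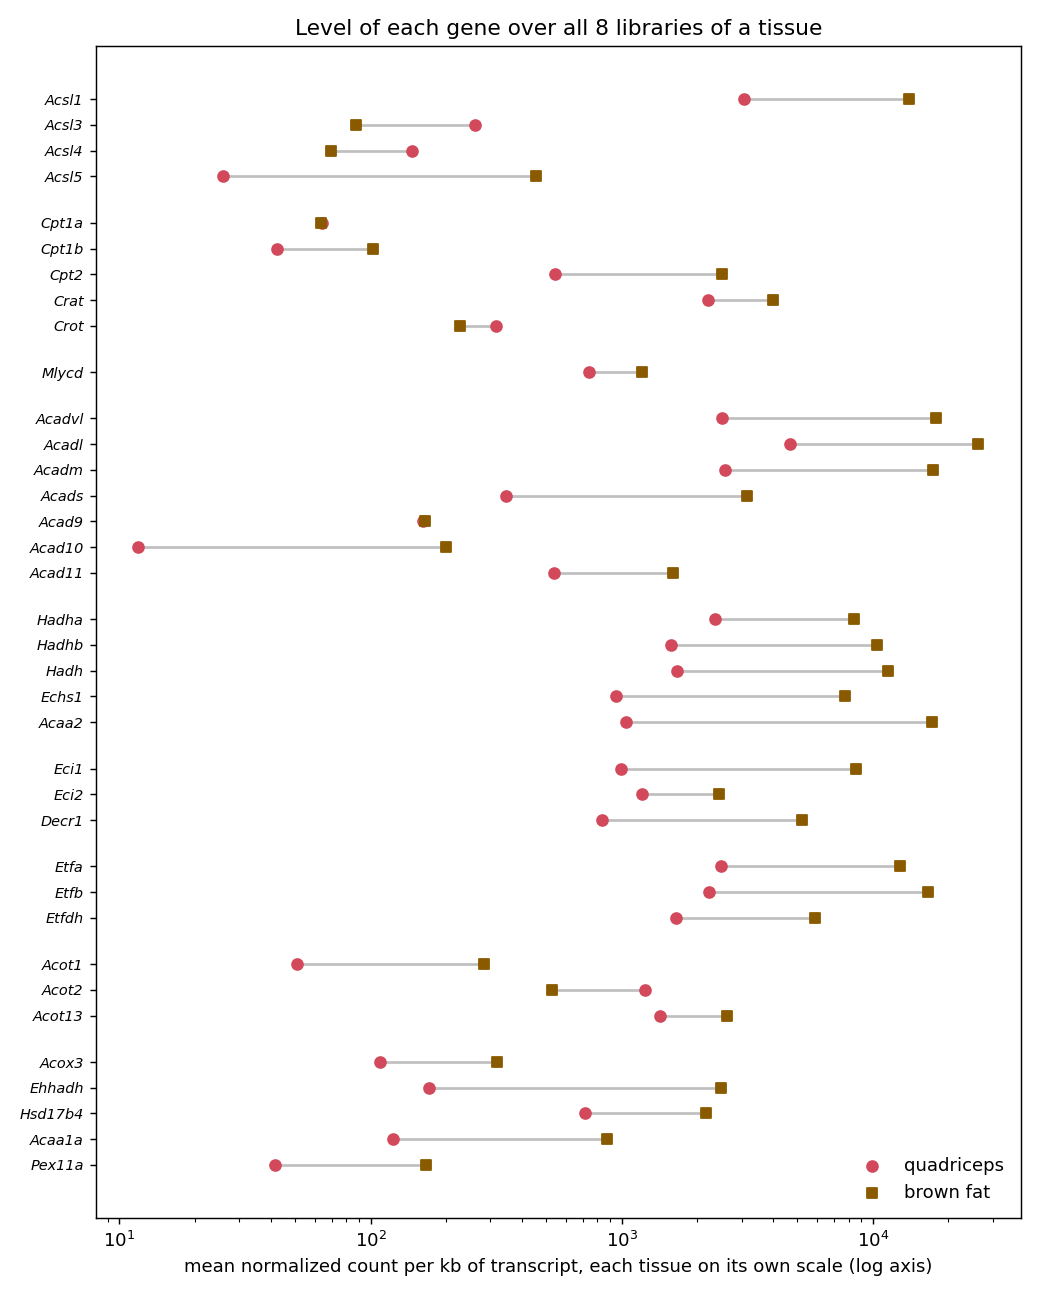
Mean normalized count per kb of transcript (log axis) for each member in quadriceps (circles) and brown fat (squares), over the 8 libraries of each tissue and on each tissue's own scale. Acadl is highest in both tissues, at 4678 and 26341 per kb, and Acsl3, Acsl4, Cpt1a, Crot and Acot2 lie lower in brown fat than in quadriceps on these scales.

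The level of Cpt1b, the CPT1 isoform of muscle and brown fat, was low, with a mean normalized count of 123 in quadriceps and 295 in brown fat in the authors' deposited table. Cpt1a, the liver-type isoform, stood at 277 and 274 there. Per kb, Cpt1b had 42.6 against 64.2 for Cpt1a in quadriceps, and 101.8 against 63.5 in brown fat. The libraries were read as single ends of 75 bases, and 92.1% of the 75-base windows of the Cpt1b transcript also occur in Gm44502, a transcript on the same strand that RefSeq also lists under the name Chkb-Cpt1b. Its exons cover 81.4% of those of Cpt1b. How reads that fit both were counted is not given in the sources used here, and the part of this overlap in the low Cpt1b level was not tested.

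Other members share read-length windows too. Windows were taken over the longest coding transcript of each member in GENCODE M21 (build GRCm38) and matched on either strand. Of the 36 members, 18 had no 75-base window in any other gene, and 11 shared more than 10% of theirs. Acadvl, for one, shared 14.0% with Dvl2, a gene that overlaps it on the opposite strand. Whether strand was used in counting is not given in the sources used here. Etfb, the beta subunit of ETF, shared 66.3% with Gm45233, Hadhb, the beta subunit of the trifunctional protein, 57.2% with Gm13910, and Acaa1a, a peroxisomal thiolase, 27.3% with its paralog Acaa1b. Acot1 had 26.4% of its windows in other genes and Acot2 21.2%, most of them in each other. Values of these members are uncertain to the extent that such reads were dropped or assigned to the other copy.

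**Figure D2:**
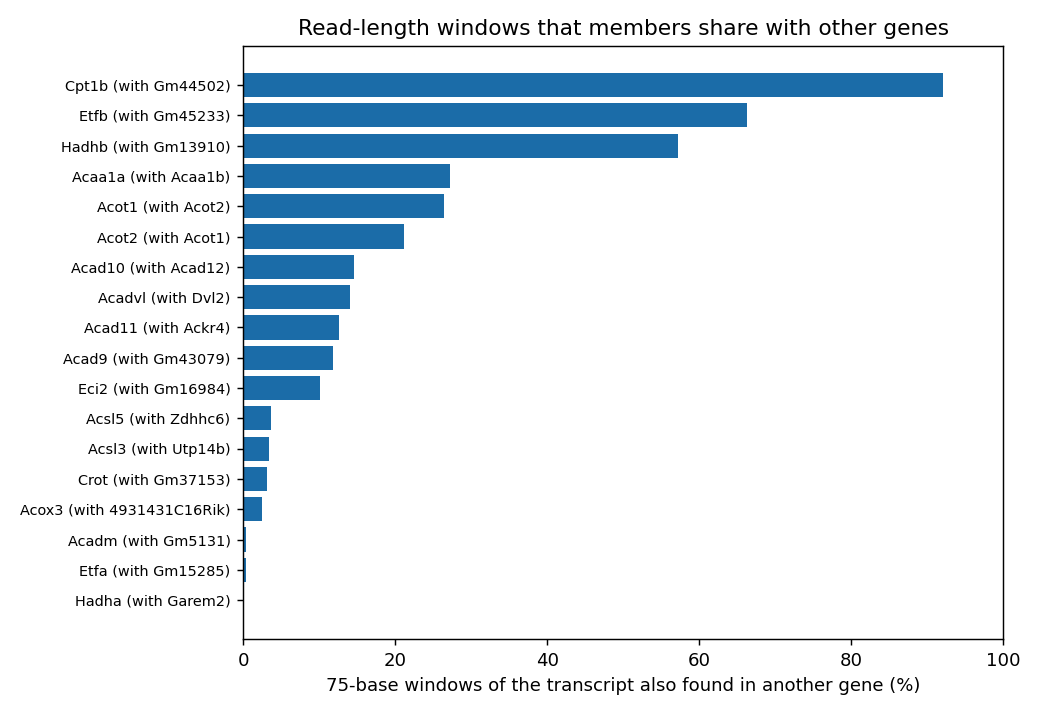
Percent of the 75-base windows of each member's longest coding transcript that also occur, on either strand, in a transcript of another gene. The 18 members with any such window are shown, and the gene sharing most is named in parentheses. Cpt1b at 92.1%, Etfb at 66.3% and Hadhb at 57.2% stand above the rest.

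The question of the genotype comparison was whether mice with the altered uORF differed in transcript levels. No member passed an adjusted p of 0.05 in either tissue. In quadriceps 0 of 36 passed, against 0% of 17521 genes, and in brown fat 0 of 36 passed, against 0.0863% of 9272 genes with an adjusted p. All 36 had a p-value and an adjusted p in both tables, and every adjusted p of a member in the authors' deposited table was 1.00. At an unadjusted DESeq2 p under 0.05 there was 1 member in quadriceps, beside 2% of all genes, and there were 0 in brown fat, beside 2.07%. The members leaned above 0 by small amounts. In quadriceps 30 of 36 were above 0, beside 51.7% of all genes, with a median log2 fold change of 0.07 (1.05-fold) against 0.0024 over all genes. In brown fat 29 of 36 were above 0, beside 51.2%, with a median of 0.05 (1.04-fold) against 0.0015. The members and this list were chosen with earlier results of these data known, so these counts are a description.

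The lean in brown fat was shared in part by other genes of like level. With each gene's log2 fold change taken relative to a running median over 500 genes near it in mean count, 25 of 36 members were above 0 in brown fat and their median was 0.023. The same step in quadriceps left 30 of 36 above 0 and a median of 0.085. Of the members, 25 were above 0 in both tissues, beside 29.1% of 16844 genes tested in both, and 2 (Acsl3 and Eci2) were below 0 in both, beside 25.8%. Another 5 were above 0 in quadriceps alone (Acsl4, Acox3, Hsd17b4, Acaa1a and Pex11a), beside 22.6% of those genes. A further 4 were above 0 in brown fat alone (Acsl5, Cpt1a, Crat and Acot13), beside 22.5%. These joint counts need both tables to run the same way: with brown fat read the other way, 5 members were above 0 in both, beside 22.6% of genes, and 4 below 0 in both, beside 22.5%. Whether each mouse gave both tissues is not stated in the labels.

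**Figure D3:**
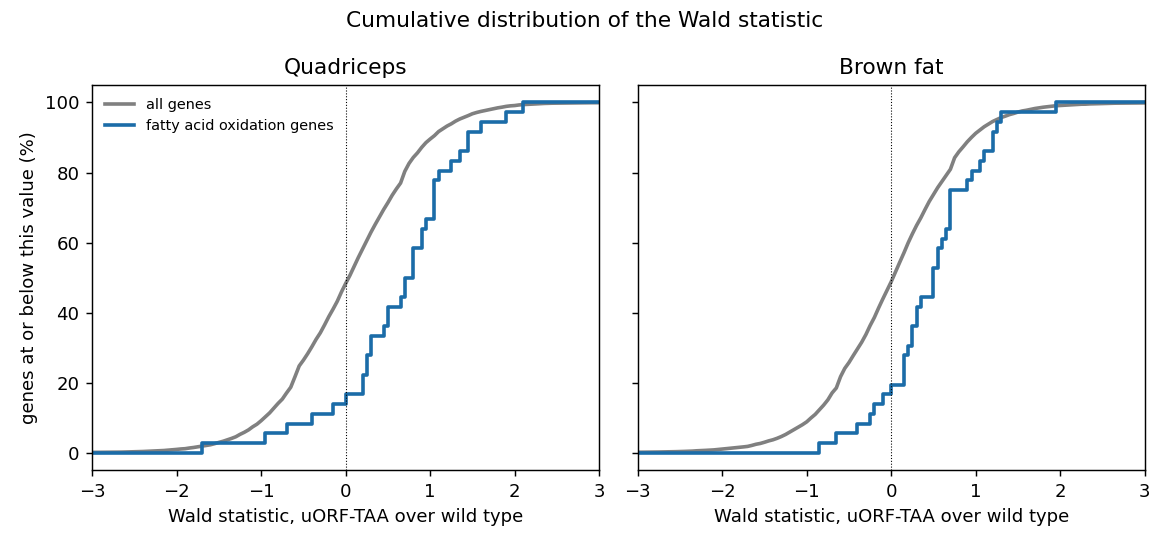
Cumulative share of genes (percent) by Wald statistic, the log2 fold change over its SE, for the 36 members (blue) and all genes with a p-value (grey) in each tissue. The member curve lies to the right over most of the range, with a median statistic of 0.73 in quadriceps and 0.48 in brown fat against 0.038 and 0.022 over all genes.

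The deposited errors give an interval around each estimate. Every 95% interval of a member lay between -0.44 and 0.53 on the log2 scale in quadriceps and between -0.34 and 0.44 in brown fat, and 35 and 36 of 36 of them included 0. Over all genes the SE reached at most 0.135 in quadriceps and 0.127 in brown fat, so interval widths had a ceiling. Deposited fold changes behave as shrunken towards 0, so unshrunken intervals may be wider. The intervals therefore do not bound the change that could have been missed. The SE of the members was 0.89 to 11.7 times the error that read counting alone would give in quadriceps, with a median of 3.78, and 1.84 to 24.0 times in brown fat, with a median of 9.10. For the abundant members, counting error was a small part of the SE. An effect of at least 1 SE above 0 was seen in 12 members in quadriceps, beside 10.4% of all genes, and in 7 in brown fat, beside 8.8%. At least 1 SE below 0 there was 1 member in quadriceps (Acsl5), beside 9.15% of genes, and there were 0 in brown fat, beside 8.82%.

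**Figure D4:**
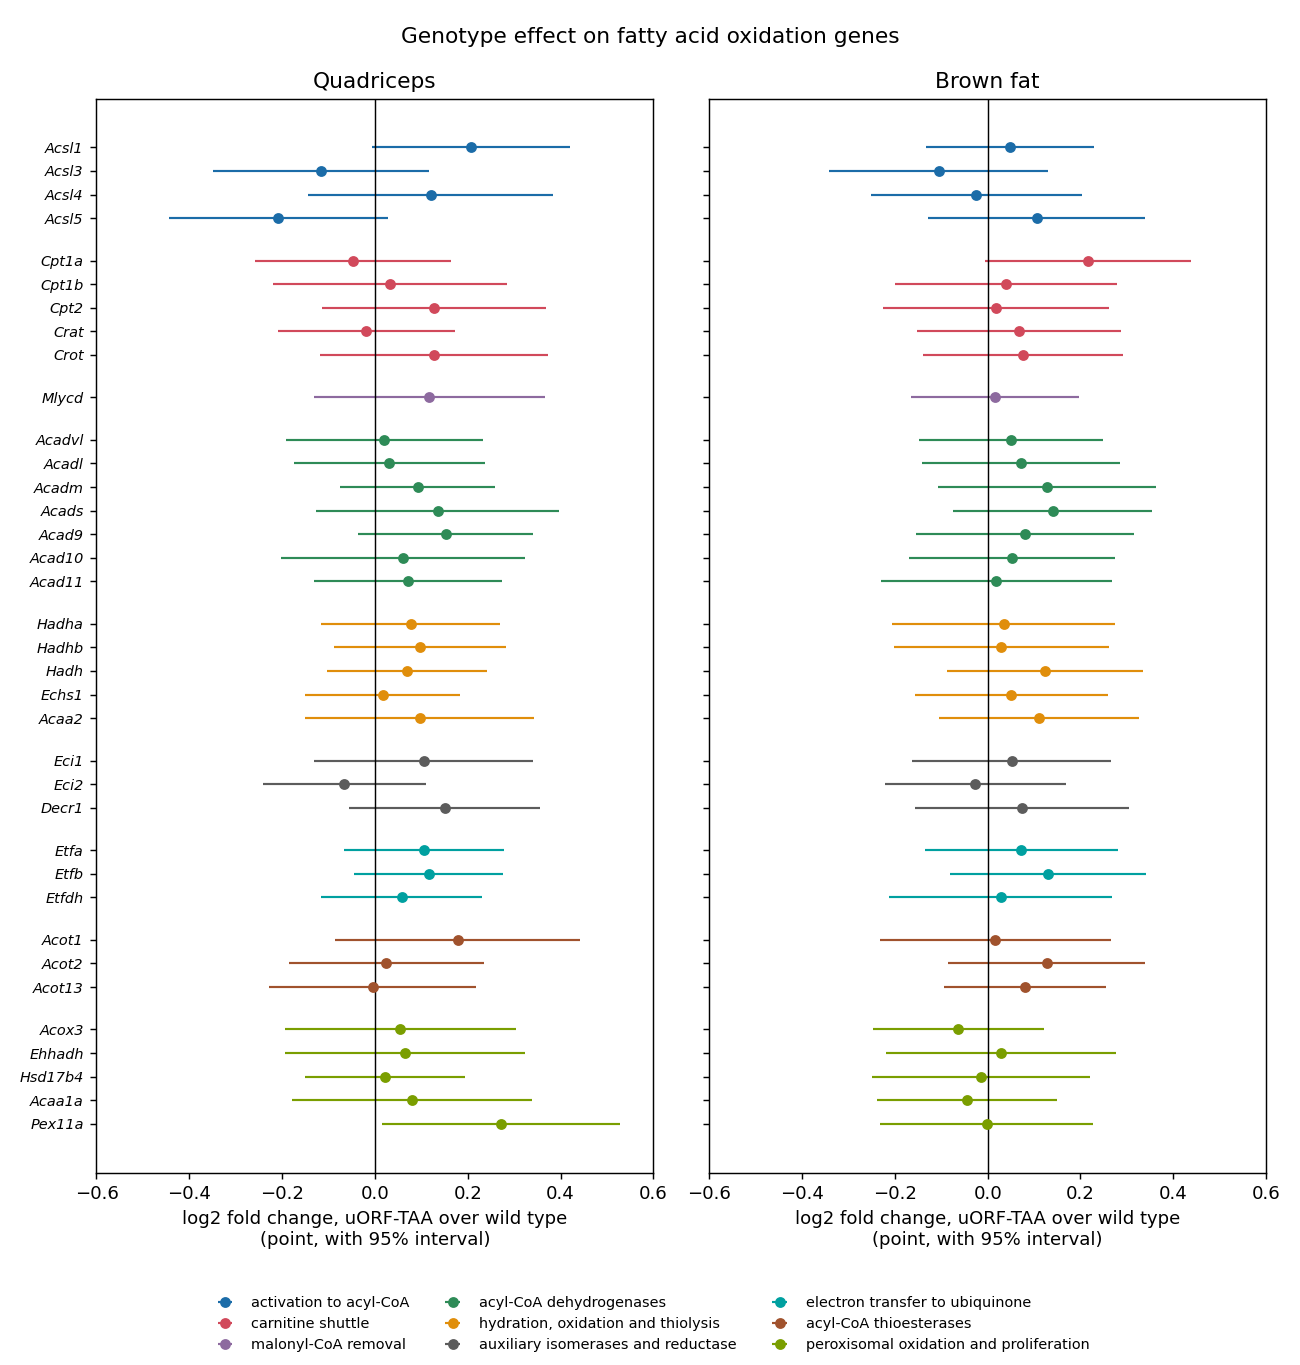
Log2 fold change of uORF-TAA over wild type (point) with its 95% interval (line) for the 36 members, by role, in quadriceps (left) and brown fat (right). The interval of Pex11a in quadriceps, from 0.016 to 0.53, is the only interval that leaves out 0.

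Among the enzymes that activate fatty acids, the 4 ACSL genes split in direction. Acsl1 had a mean normalized count of 11982 in quadriceps. Its log2 fold change there was 0.21 ± 0.11 (SE) by the authors' deposited table, with an unadjusted p of 0.0584 and an adjusted p of 1.00 by DESeq2. In brown fat, where its mean was 54296, the authors' deposited table gave 0.05 ± 0.09 (SE). Acsl5, which serves fat storage as well as oxidation, leaned the other way in quadriceps, at -0.21 ± 0.12 (SE) and an unadjusted p of 0.0830 in the authors' deposited table. Its mean there was 110 counts. In brown fat the authors' deposited table had it at 0.11 ± 0.12 (SE) with a mean of 1940. Acsl3, an enzyme of lipid droplets, was below 0 in both, at -0.12 and -0.11 in the authors' deposited table. Acsl4, which prefers arachidonic acid, was at 0.12 in quadriceps and -0.02 in brown fat in the authors' deposited table.

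The carnitine shuttle showed its largest estimate in Cpt1a of brown fat. There the authors' deposited table gave a log2 fold change of 0.22 ± 0.11 (SE), 1.16-fold, with an unadjusted p of 0.0567 and an adjusted p of 1.00 by DESeq2. The 95% interval ran from -0.0062 to 0.44, and in quadriceps Cpt1a stood at -0.05 ± 0.11 (SE) in the authors' deposited table. Cpt1b was at 0.03 and 0.04 in quadriceps and brown fat in the authors' deposited table, with the overlap described above. Cpt2, which returns acyl groups to CoA inside the matrix, was at 0.13 in quadriceps and 0.02 in brown fat in the authors' deposited table. Crat, the acetyl transferase that buffers acetyl-CoA, had -0.02 and 0.07 there in the authors' deposited table, and Crot, the peroxisomal octanoyl transferase, 0.13 and 0.08. All 5 genes of the shuttle were above 0 in brown fat and 3 in quadriceps, and relative to the running median 4 of 5 in brown fat, without Cpt2. Mlycd, which breaks down malonyl-CoA and so relieves CPT1, was at 0.12 ± 0.13 (SE) in quadriceps and 0.02 ± 0.09 (SE) in brown fat in the authors' deposited table.

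The acyl-CoA dehydrogenases, which catalyse the opening oxidation of each round, were all above 0 in both tissues, 7 of 7, and relative to the running median 6 of 7 in brown fat, without Acad11. Their estimates in quadriceps lay between 0.02 and 0.15, those in brown fat between 0.02 and 0.14, and each median was 0.07. Acad9, which also serves complex I assembly, was highest in quadriceps at 0.15 ± 0.10 (SE), with an unadjusted p of 0.112 by DESeq2 in the authors' deposited table. In brown fat the short-chain enzyme Acads was highest, at 0.14 ± 0.11 (SE) and an unadjusted p of 0.201 in the authors' deposited table. Acadm, whose human deficiency is a common oxidation disorder, was at 0.09 ± 0.09 (SE) in quadriceps and 0.13 ± 0.12 (SE) in brown fat in the authors' deposited table. Acadl, the member of highest level per kb, was at 0.03 and 0.07, and Acadvl at 0.02 and 0.05 in the authors' deposited table.

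Enzymes of hydration, the second oxidation and thiolysis were above 0 in both tissues, 5 of 5, and relative to the running median 4 of 5 in brown fat, without Hadhb. Hadha and Hadhb, the subunits of the trifunctional protein, had 0.08 and 0.10 in quadriceps and 0.03 and 0.03 in brown fat in the authors' deposited table. Hadh, the short-chain hydroxyacyl-CoA dehydrogenase, had 0.07 in quadriceps and 0.12 ± 0.11 (SE) in brown fat, with an unadjusted p of 0.249 by DESeq2 in the authors' deposited table. Acaa2 was at 0.10 and 0.11, and the short-chain hydratase Echs1 at 0.02 and 0.05 in the authors' deposited table. Of the auxiliary enzymes for unsaturated chains, the reductase Decr1 was at 0.15 ± 0.11 (SE) in quadriceps, with an unadjusted p of 0.153, and at 0.07 in brown fat in the authors' deposited table. The isomerase Eci1 had 0.10 and 0.05 and the related Eci2 -0.07 and -0.03 in the authors' deposited table.

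The 3 genes that carry electrons from the dehydrogenases to ubiquinone were above 0 in both tissues, and relative to the running median 2 of 3 in brown fat, without Etfdh. Etfb had 0.12 ± 0.08 (SE) in quadriceps, with an unadjusted p of 0.157 by DESeq2, and 0.13 ± 0.11 (SE) in brown fat, with a p of 0.226, in the authors' deposited table. Etfa, the other ETF subunit, had 0.11 and 0.07 and Etfdh, the ubiquinone oxidoreductase, 0.06 and 0.03 in the authors' deposited table.

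The thioesterases release free fatty acid from acyl-CoA. Acot1, the cytosolic enzyme, and Acot2, its mitochondrial paralog, are 95.5% identical over 1239 aligned coding bases. Over the whole transcripts 19.7% of the 75-base windows of Acot1 occur in Acot2 and 20.5% of those of Acot2 in Acot1, so most windows tell them apart. The window of 100 coding bases in which they differ most is shown to make the difference visible. It covers coding bases 787 to 886 of Acot1 and 910 to 1009 of Acot2, counted from the start codon in GENCODE M21, and capitals mark the 14 bases that differ.
Acot1: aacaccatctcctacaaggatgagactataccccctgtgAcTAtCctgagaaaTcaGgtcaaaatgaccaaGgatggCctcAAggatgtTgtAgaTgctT
Acot2: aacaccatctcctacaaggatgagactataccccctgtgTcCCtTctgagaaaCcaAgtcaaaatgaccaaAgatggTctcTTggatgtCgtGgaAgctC
Acot1 was at 0.18 ± 0.13 (SE) in quadriceps and 0.02 ± 0.13 (SE) in brown fat in the authors' deposited table. For Acot2 the authors' deposited table had the larger value in brown fat, 0.13 ± 0.11 (SE) with an unadjusted DESeq2 p of 0.240, and 0.02 ± 0.11 (SE) in quadriceps. Acot13, a mitochondrial thioesterase of another fold, was at -0.0051 and 0.08 in the authors' deposited table. Acot2 was also a member whose share was lower in brown fat than in quadriceps, at 0.70 of it.

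Peroxisomal genes were all above 0 in quadriceps, 5 of 5, and 1 of 5 was above 0 in brown fat. Pex11a, which drives peroxisome proliferation and is a classic PPARalpha target, had the smallest p of all members in quadriceps, ranking 250 among the 17521 genes there. The authors' deposited table gave a log2 fold change of 0.27 ± 0.13 (SE), 1.21-fold, with an unadjusted p of 0.0373 and an adjusted p of 1.00 by DESeq2. Its mean normalized count was 93.0. In brown fat Pex11a was at -0.0023 ± 0.12 (SE) with a mean of 373 in the authors' deposited table. The oxidase Acox3 was at 0.05 in quadriceps and -0.06 in brown fat, Acaa1a at 0.08 and -0.04, and Hsd17b4, a multifunctional enzyme, at 0.02 and -0.02 in the authors' deposited table. Ehhadh was at 0.07 and 0.03 in the authors' deposited table.

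The difference of the genotype effect between tissues was then tested for each gene with a normal test of the difference of log2 fold changes. No member passed, with 0 of 36 at an adjusted p of 0.05, beside 0% of 16844 genes, and 0 at an unadjusted p under 0.05, beside 1.16%. Acsl5 had the smallest p, with quadriceps less brown fat at -0.31 ± 0.17 (SE), a 95% interval from -0.65 to 0.018 and an unadjusted p of 0.0636. Cpt1a followed at -0.26 ± 0.16 (SE), with an unadjusted p of 0.0913. Pex11a had 0.27 ± 0.18 (SE) and Acsl1 0.16 ± 0.14 (SE), with unadjusted p of 0.117 and 0.265. The adjusted p of each was 1.00. This order rests on the assumed direction of brown fat: with that table read the other way, Etfb had the smallest p of the members, 0.0687, at 0.25 ± 0.14 (SE), Acsl5 stood at -0.10, and 0 members had an unadjusted p under 0.05, beside 3.08% of genes. The lean of peroxisomal genes below 0 in brown fat and above 0 in quadriceps therefore rests on estimates that no test separates.

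Transcripts of the regulators took no common direction. Ppargc1a itself was at 0.06 ± 0.13 (SE) in quadriceps and 0.0016 ± 0.11 (SE) in brown fat, with adjusted p of 1.00 by DESeq2, in the authors' deposited table. Of 17 regulators, 9 were above 0 in each tissue, beside 51.7% of all genes in quadriceps and 51.2% in brown fat. Among these regulators 0 passed an adjusted p of 0.05. Ppara, the receptor that drives oxidation genes, had the smallest p of them in brown fat, at 0.41 ± 0.12 (SE) with an unadjusted p of 6.57e-04 and an adjusted p of 0.321 by DESeq2 in the authors' deposited table. Its partner Rxrg was at 0.26 and Klf15, a glucocorticoid-induced factor, at -0.26 in brown fat in the authors' deposited table. Their unadjusted p there were 0.0286 and 0.0428 by DESeq2. At an unadjusted DESeq2 p under 0.05, 2 regulators were above 0 and 1 below 0 in brown fat, beside 2.07% of all genes. In quadriceps 1 was above 0 and 0 were below 0, beside 2%. In quadriceps Ppara was at -0.06, while Ppargc1b, the paralog of Ppargc1a, had 0.28 ± 0.13 (SE) and an unadjusted p of 0.0370 by DESeq2 in the authors' deposited table. Klf15 was at -0.22 and the ERR family gene Esrrg at 0.16 in quadriceps in the authors' deposited table.

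Promoters of 4 members are shown for the receptor core element AGGTCA, which PPAR and ERR proteins recognise. RefSeq promoter sequences of build GRCm38.p6, from 250 bases before to 50 after the start, matched 29 of the 36 members, with 30 promoters. For 20 of the 30 the first transcribed bases lie in the GENCODE transcript used above, Cpt1a and Echs1 among them but not Acadm or Acadvl. Which start is used in these tissues was not tested. The element was found on either strand in Acadm, Acadvl, Cpt1a and Echs1, 13.8% of the 29, and in 18.1% of 27025 genes. The longer form AAGGTCA, which contains it, was found in Acadm, beside 5.38% of genes, and the direct repeat of AGGTCA with any base between the copies in 0 of 29, beside 0.0481%. On either strand CCAAT was found in 16 members (55.2%, beside 41.1% of genes). A match is a description of these letters and not a binding site. The windows of 50 bases lie at chr3:153944844-153944893 (minus strand) for Acadm, chr11:70015488-70015537 (minus) for Acadvl, chr19:3323185-3323234 (plus) for Cpt1a and chr7:140116477-140116526 (minus) for Echs1, all before the start. They are written along the gene's strand, with the element in capitals, which reads TGACCT where it lies on the other strand.
Acadm: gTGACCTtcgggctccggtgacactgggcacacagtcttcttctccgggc
Acadvl: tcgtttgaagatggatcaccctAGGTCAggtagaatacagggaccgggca
Cpt1a: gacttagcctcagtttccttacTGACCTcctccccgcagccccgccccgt
Echs1: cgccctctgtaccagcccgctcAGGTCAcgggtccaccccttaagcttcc
The genotype estimates of these 4 genes lay between -0.05 and 0.09 in quadriceps and between 0.05 and 0.22 in brown fat in the authors' deposited table.

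The rest of the pathway was followed through 33 further oxidation genes, such as the carnitine carrier Slc25a20, named for its role. Of these, 19 were above 0 in quadriceps, beside 51.7% of all genes, with a median log2 fold change of 0.0097. In brown fat 24 were above 0, beside 51.2%, with a median of 0.05. None had an unadjusted DESeq2 p under 0.05 in either tissue, beside 2% and 2.07% of all genes, and 0 passed an adjusted p of 0.05. Slc25a20 was at 0.06 in quadriceps and 0.02 in brown fat in the authors' deposited table. In quadriceps the smallest p values were those of Acot11 at 0.26, Hacl1 at 0.22 and Nudt7 at 0.20, and in brown fat those of Acot4 at 0.20, Acot11 at 0.17 and Pecr at 0.15 in the authors' deposited table.

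Markers of other cell types had estimates of like size beside the members. Over all genes, 51.7% were above 0 in quadriceps and 51.2% in brown fat. General adipocyte markers were above 0 in 10 of 12 genes in each tissue, with a median of 0.06 in quadriceps and 0.11 in brown fat. Brown adipocyte markers were also above 0 in 10 of 12 in each, with medians of 0.04 and 0.05. In quadriceps the slow fibre markers, which mark oxidative fibres, were above 0 in 9 of 10 (median 0.04). In brown fat they were above 0 in 10 of 10 (0.04). Skeletal muscle fibre markers, fast-fibre genes such as Myh4 among them, were above 0 in 7 of 15 and 1 of 15. Their estimates lay between -0.12 and 0.07 in quadriceps and between -0.03 and 0.01 in brown fat. Mural cell markers were above 0 in 2 of 10 in quadriceps (-0.11) and 7 of 10 in brown fat (0.09), and Schwann cell markers in 0 of 10 (-0.15) and 2 of 10 (-0.09). Endothelial markers were above 0 in 5 and 7 of 10, macrophage markers in 5 and 3 of 10 and fibroblast markers in 7 of 10 in each tissue. None of these markers passed an adjusted p of 0.05. The part of cell composition in the members' estimates was not tested.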

How the data were processed

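Libraries were made with a stranded mRNA kit and read from one end, per the labels' protocols. STAR 2.5.1b, DESeq2 1.10.1 and build mm9 are named in the submitters' processing notes without a role, and which annotation and counter were used is not given in the sources. The file headers name, for each gene, a deposited mean normalized count, treated as a signal over 8 libraries, a deposited log2 fold change with its SE, a Wald score and deposited p-values. The score, p and Benjamini-Hochberg adjustment were recomputed from these columns to within rounding. Depth came from genes with a single read, whose mean is fixed by a library's size factor (8 levels per tissue).

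From the tables, 95% intervals, shares of summed means, levels per kb and the tissue difference (two-sided normal p, Benjamini-Hochberg over 16844 genes) were computed with Python 3.11.15, pandas 2.3.3 and scipy 1.17.1. The tissue test treats the tissues as independent. Procedures were tested on simulated statistics first, at an adjusted p under 0.05. Shifts of 3 SE were recovered for 29% of shifted genes in quadriceps and 16% in brown fat. Shifts of 6 SE were recovered for 100% in each tissue. The tissue test recovered 99.5% of shifts of 6 SE and called 14 unshifted genes.

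Lists and members were chosen with earlier results of these data known. Full values went to the 6 members of smallest p per tissue, the 4 of smallest p for the tissue difference and those of extreme level, with up to 3 genes per other list. Slc25a20, Ucp1, Myh4 and Ppara of quadriceps were named outside this rule, after their values were seen. A few results under this rule are left out here.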

Additional observations from a re-analysis of the deposited data

How the results depend on the processing

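No paired analysis was possible because the tables hold no values per library, and leaving out each replicate could not be run for the same reason. With the sign of brown fat turned over, 7 of 36 members were above 0 in brown fat, the median member log2 fold change there was -0.051, 5 members were above 0 in both tissues, against 25, and 6 genes differed between the tissues, against 0 as reported. The tissue difference then reversed for Cpt1a, to 0.17, and Etfb, to 0.25. The joint count and these differences were added after the data were seen. At an adjusted p under 0.1, 2 genes passed in quadriceps, none of them a member, against 0 at 0.05. In brown fat 11 passed at 0.1, 6 with the adjustment run over the whole table and 8 with low genes (mean under 10) left out, against 8. Setting the median gene to 0 took the log2 ratio of the members' summed share, brown fat over quadriceps, from 2.96 to 2.05. The running median over 500 genes turned 4 members of brown fat below 0 (Cpt2 to -0.0031, Acad11 to -4.26e-05, Hadhb to -0.0026 and Etfdh to -0.0031) and kept the direction of the other 68 estimates of members in the 2 tissues. Centring on the median of genes with means of 50 or more turned none of 72. Without the 11 members that share over 10% of their 75-base windows, a setting added after the data were seen, 20 of the rest were above 0 in each tissue, with medians of 0.08 and 0.05. Without Acot1 and Acot2, 28 were above 0 in quadriceps and 27 in brown fat. The cause of these shifts was not tested. Deposited SEs behave as shrunken, being smallest at low means (median 0.022 in quadriceps and 0.018 in brown fat for means under 1). The SE relative to the counting error was lowest in low members of quadriceps. It was 0.89 for Acad10, 1.23 for Acsl5, 1.24 for Pex11a, 1.40 for Cpt1b and 1.42 for Acot1. For Acad10 the SE was below the counting error, so this ratio does not measure how far counting limits a member.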

Other observations

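Further targets of PPAR factors are given by count. They include Acot11, which is also among the 33 further oxidation genes, and 4 of the general and 2 of the brown adipocyte markers. Their difference between the tissues was not tested as a list. In quadriceps 7 of 17 were above 0, beside 51.7% of all genes, with a median log2 fold change of -0.04. In brown fat 12 of 18 were, beside 51.2%, with a median of 0.04. Ucp3, a mitochondrial carrier that follows fatty acid supply, had 0.33 ± 0.08 (SE) in brown fat, with an adjusted p of 0.0744 by DESeq2 in the authors' deposited table. Txnip, a glucose-responsive inhibitor of thioredoxin, was at -0.25 in quadriceps in the authors' deposited table. None of these genes passed an adjusted p of 0.05.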
